A study of Homo sapiens with 24 samples.

Results

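The subject of this account is a set of 9 genes for transcription factors of the myeloid lineage: SPI1, CEBPA, CEBPB, CEBPD, IRF8, RUNX1, RUNX3, GFI1 and ZEB2. They were chosen by symbol, and every probe that the platform's listing pairs with 1 of these symbols was looked up, which gave 14 of the 47231 probes on the array. A probe was kept where its signal stood above the negative control probes (detection p under 0.01) on at least 3 of 24 arrays, and 10 of the 14 were kept. All 9 genes had a kept probe, so 9 of the 10351 genes tested are described here.

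The cells were OCI-AML3, an established human acute myeloid leukaemia line carrying GFP and luciferase, so every sample comes from 1 leukaemia. They grew in NSG mice, an immunodeficient strain, and were sorted on GFP and human CD45 from peripheral blood, spleen and femoral bone marrow of each of 8 mice. Of these mice 3 were controls harvested on day 42, 3 had received the CXCR4 inhibitor for 24 h (day 41) and 2 for 72 h (day 43), as daily subcutaneous doses of 2.5 mg/kg. The compound is named LY2510924 in the treatment protocol and LY2510294 in the sample characteristics. The 9 site-by-treatment groups held 1 array per mouse, and harvest day cannot be told apart from treatment. CXCR4 is the receptor of CXCL12, a chemokine of the marrow stroma that retains haematopoietic and leukaemia cells there.

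PU.1, the product of SPI1, is an ETS factor that commits progenitors to the myeloid and lymphoid lineages. C/EBP factors act beside it: C/EBP alpha drives granulocytic commitment, and C/EBP beta and delta are induced in emergency granulopoiesis, inflammation and monocytic maturation. IRF8 directs cells to monocytes and dendritic cells, GFI1 represses monocytic genes in favour of granulocytes, and RUNX1 with its paralogue RUNX3 binds DNA together with CBF beta. ZEB2 is a zinc finger repressor needed by monocytes, dendritic cells and haematopoietic progenitors, and is best known from the epithelial to mesenchymal transition.

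Values are normalised log2 intensities, on which a step of 1 is a doubling. They compare arrays for a given probe, not probes with each other. Between 13066 and 15721 probes were detected per array. The first principal component held 44% of the variance and ran from -88.7 to -52 in 72 h blood, against 28.7 to 31.1 in control marrow. All 24 h arrays lay on BeadChip 1 and all 72 h arrays on BeadChip 2, with control mouse 4 on the first and control mice 5 and 6 on the second. Of 10 T and NK cell markers 7 (CD3D, CD3E, CD3G, CD247, CD8A, CD4 and KLRD1) were detected on no array, while NCAM1 and IL7R were detected on all 24 and CD2 on 1. Of 5 B cell genes on the array MS4A1, PAX5 and BLK were detected on none and 2, CD79A and CD79B, on 3 or more. Of 5 platelet genes on the array PF4, GP9 and ITGB3 were detected on none, and PPBP and ITGA2B on 1 spleen array each. Of 8 erythroid genes on the array 2 were detected on 3 or more arrays, HBA2 on all 24, and of 7 tissue macrophage genes 5 were, CD163 and MARCO on all 24. Of 5 myeloid identity genes on the array MEIS1 was detected on all 24 arrays, CD34 on 1 and KIT on none. ANPEP was detected on 8 blood, 8 spleen and 5 marrow arrays, and PTPRC, the gene of CD45, on 6, 5 and 3. In bulk RNA, fewer cells of a type and less RNA per cell cannot be told apart.

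**Figure D1:**
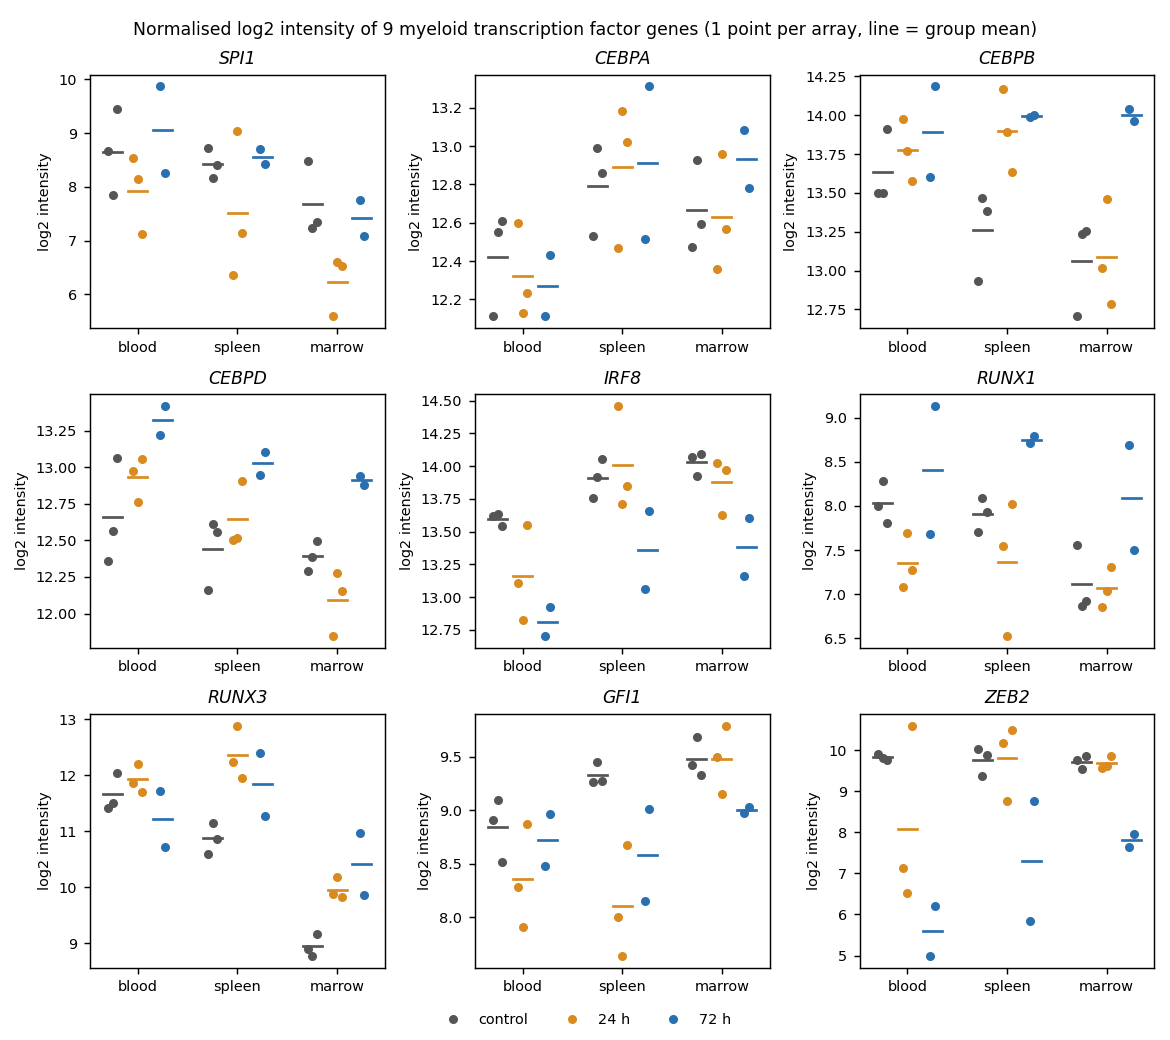
Normalised log2 intensity (y axes, each with its own range) of the 9 genes in blood, spleen and marrow (x axes). Each point is 1 array, colours give control, 24 h and 72 h of inhibitor, and lines are group means; RUNX3 lies lowest in the 3 control marrow arrays (8.77 to 9.16) and ZEB2 lowest in the 2 arrays of 72 h blood (4.99 and 6.21).

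Most of the 9 genes differed between sites. In blood against marrow over 8 mice, 8 of 9 passed, against 48.5% of all genes. SPI1, CEBPB, CEBPD and RUNX3 were higher (4 of 9, against 22% of all genes), and CEBPA, IRF8, GFI1 and ZEB2 were lower (4 of 9, against 26.4%). In spleen against marrow 4 of 9 passed, against 12.1% of all genes: SPI1, CEBPB and RUNX3 were higher (background 7.01%) and GFI1 was lower (background 5.13%). In blood against spleen CEBPA, IRF8 and ZEB2 were lower, 3 of 9 with a background of 21.2%. Differences were tested with limma with the mouse as a replicate block, two-sided, with Benjamini-Hochberg adjustment over all 10351 genes at a threshold of 0.05. The median difference of the 9 genes was 0.45 in blood against marrow and 0.26 in spleen against marrow, beside -0.03 and -0.0043 over all genes. The blood median is the value of CEBPB. With 4 genes passing higher and 4 lower it shows no common shift of the set.

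**Figure D2:**
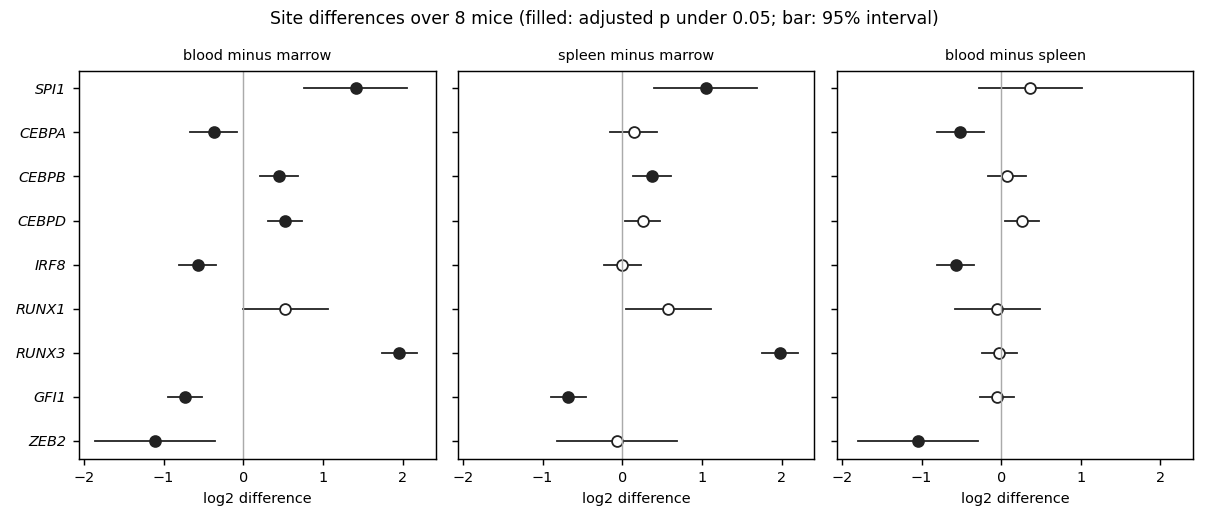
Log2 differences between sites over 8 mice (x axis) for the 9 genes (y axis), with 95% intervals; filled points passed an adjusted p of 0.05. RUNX3 stands at 1.96 in blood minus marrow and 1.98 in spleen minus marrow, and the filled points in blood minus spleen all lie below 0.

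In control mice CEBPB and RUNX3 were higher and GFI1 lower in blood than in marrow (3 of 9, background 16.3%), and RUNX3 was higher in spleen than in marrow (1 of 9, background 0.56%) and in blood than in spleen (1 of 9, background 5.73%). In 24 h mice 7 of 9 passed in blood against marrow (background 36.3%), 4 in spleen against marrow (background 13.7%) and 1, IRF8, in blood against spleen (background 1.74%). In 72 h mice RUNX3 and ZEB2 passed in blood against marrow (2 of 9, background 16.2%) and RUNX3 in spleen against marrow (1 of 9, background 0.242%). Blood against spleen in 72 h mice gave 0 of 9 with limma (background 3.8%), and 4 at an unadjusted p under 0.05. Unadjusted counts, here and below, have no share of all genes beside them, so neither an excess nor its absence can be read from them. RUNX3 passed in blood against marrow and in spleen against marrow in each of the 3 treatment groups. Its control and 24 h calls against marrow held without any single mouse, while at 72 h the blood call (0.80 ± 0.21, adjusted p = 0.0216) was lost without mouse 8 or 9 (up to 0.122) and the spleen call (1.42, adjusted p = 0.0151) without mouse 4, 8 or 9 (up to 0.0968). Without mouse 8 or 9, here and below, 1 mouse is left at 72 h, and it is assumed to vary like the other groups. Removing a mouse of a group that a contrast does not compare leaves the difference itself unchanged. The adjusted p then moves only through the shared spread and the adjustment, as for ZEB2 at 24 h without mouse 4, 5 or 6 (-1.60 each). Leaving out a mouse also ended the control calls of CEBPB in blood against marrow (mouse 3, 4, 5 or 6, up to 0.306) and of RUNX3 in blood against spleen (mouse 4 or 6, up to 0.412). Among the 24 h calls in blood against marrow, SPI1 (up to 0.144) and CEBPB (0.105) were lost without mouse 1, IRF8 without mouse 1 or 2 (up to 0.0589) and ZEB2 without mouse 1, 2, 4, 5 or 6 (up to 0.388). In 24 h spleen CEBPB was lost without mouse 1 (0.136) and CEBPD without mouse 1, 3, 4, 5 or 6 (up to 0.208), and IRF8 in blood against spleen without mouse 1, 2, 4, 5 or 6 (up to 0.295). ZEB2 in 72 h blood (-2.21 ± 0.71, adjusted p = 0.0466) was lost without mouse 1, 4, 5, 6, 8 or 9 (up to 0.291) and with undetected values raised to the lowest detected signal of their array (-1.59, adjusted p = 0.141).

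RUNX3, which in T cells and NK cells sets cytotoxic programmes, was the gene of the set with the largest differences in spleen and blood against marrow. In blood it measured 11.41, 11.51 and 12.05 in control mice, 11.87, 12.21 and 11.70 in 24 h mice, and 11.72 and 10.72 in 72 h mice. In spleen the values were 10.60, 11.15 and 10.87 in control mice, 12.25, 12.89 and 11.96 in 24 h mice, and 12.40 and 11.27 in 72 h mice. Marrow arrays held 8.89, 8.77 and 9.16 in control mice, 9.87, 10.17 and 9.82 in 24 h mice, and 10.97 and 9.86 in 72 h mice. In every mouse the marrow value was the lowest of its 3 sites. The difference was 1.96 ± 0.11 (SE, n = 8 mice) in blood against marrow, or 3.89-fold (adjusted p = 4.69e-08, higher in 8 of 8 mice), rank 3 by p among all genes. In spleen against marrow it was 1.98 ± 0.11, or 3.95-fold (adjusted p = 7.92e-08, 8 of 8 mice), with the smallest p of all genes. Both differences passed in all 20 alternatives tried, between 1.81 and 2.13 in blood and between 1.73 and 2.23 in spleen. Within BeadChip 1 they were 2.11 and 2.23, and within BeadChip 2 they were 1.81 and 1.73. A second RUNX3 probe, designed to another transcript, was detected on 1 of 24 arrays.

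RefSeq lists 2 start sites of RUNX3 in the table used here, 34734 bases apart on chromosome 1 of GRCh38.p14, minus strand. The promoters, from 250 bases before the start to 50 after it, are shown because RUNX3 carried the largest site differences and because RUNX proteins recognise a short motif that can stand in their own promoters. Capitals mark TGTGGT, the RUNX core, read on either strand. The upstream promoter is chr1:24964961-24965260 and the downstream one chr1:24930227-24930526.
RUNX3 upstream promoter: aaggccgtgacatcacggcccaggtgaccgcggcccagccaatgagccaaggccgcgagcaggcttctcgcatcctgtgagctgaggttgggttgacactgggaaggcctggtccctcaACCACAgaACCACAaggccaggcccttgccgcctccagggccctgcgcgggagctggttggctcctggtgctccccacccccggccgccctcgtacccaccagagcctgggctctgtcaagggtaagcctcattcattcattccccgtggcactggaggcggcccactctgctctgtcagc
RUNX3 downstream promoter: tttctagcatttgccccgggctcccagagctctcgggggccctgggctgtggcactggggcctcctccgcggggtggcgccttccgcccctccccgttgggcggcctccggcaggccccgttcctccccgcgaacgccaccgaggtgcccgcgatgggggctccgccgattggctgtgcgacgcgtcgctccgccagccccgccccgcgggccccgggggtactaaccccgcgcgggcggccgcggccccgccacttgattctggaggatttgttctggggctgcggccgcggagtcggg
The upstream promoter held the motif at 2 places on the strand opposite to the gene, at positions -131 to -126 and -123 to -118 counted from the start site. The downstream one held 0. Of all 35116 promoters of the same length 13.1% held TGTGGT on either strand. A match describes letters only. Which of the 2 start sites gave the transcript read by the kept RUNX3 probe was not tested. The motif matches are therefore not tied to the measured differences.

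The site pattern of RUNX3 differed between the treatment groups, which also differ in harvest day. Blood exceeded marrow by 2.53, 2.74 and 2.88 in control mice, by 2.00, 2.03 and 1.89 in 24 h mice, and by 0.75 and 0.86 in 72 h mice. The ranges of the 3 groups did not overlap. Blood minus spleen was 0.82, 0.37 and 1.18 in control mice, -0.38, -0.68 and -0.26 in 24 h mice, and -0.68 and -0.55 in 72 h mice, so that blood lay above spleen in 3 of 3 control mice and below it in 5 of 5 treated mice. The blood against marrow difference was smaller in 72 h than in control mice by -1.91 ± 0.27 (adjusted p = 0.00415), where 1.41% of all genes passed. The blood against spleen difference was lower in 24 h than in control mice by -1.23 ± 0.24 (adjusted p = 0.0381), where 1.27% passed. The joint test of both site differences gave an adjusted p of 0.0132 for 72 h (1 of 9, background 0.821%). For 24 h it gave 0 of 9 (background 0.299%), with RUNX3 and GFI1 at an unadjusted p under 0.05 in limma. The first of these kept its call without any single mouse; the second lost it without mouse 1, 2, 4, 5 or 6 (adjusted p up to 0.295), and the joint test lost it without mouse 4, 5, 6 or 8 (0.0905, 0.0616, 0.107 and 0.105). Without a replicate block the first and second had adjusted p = 0.146 and 0.265, and within BeadChip 2 the first was -2.01 (adjusted p = 0.115). With the series matrix values the first and second had adjusted p = 0.405 and 0.339, and with median scaling 0.101 and 0.203. The joint test at 72 h had 0.697 and 0.198 under these settings.

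Set within sites, RUNX3 was higher in 24 h than in control spleen by 1.49 ± 0.34 (2.82-fold, adjusted p = 0.00788), with groups that did not overlap. It was also higher in 72 h than in control marrow by 1.48 ± 0.38 (2.79-fold, adjusted p = 0.0413), again without overlap. The spleen result was lost without mouse 4 (1.36, adjusted p = 0.0739) and within BeadChip 1, which holds 1 control mouse (1.77, adjusted p = 0.193), and the marrow result without mouse 1, 4, 5, 6 or 8 (adjusted p up to 0.22) and with the BeadChip as a covariate (1.38, adjusted p = 0.0899). In blood the differences from control were 0.27 at 24 h and -0.43 at 72 h, and neither passed (adjusted p = 0.705 and 0.377).

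**Figure D3:**
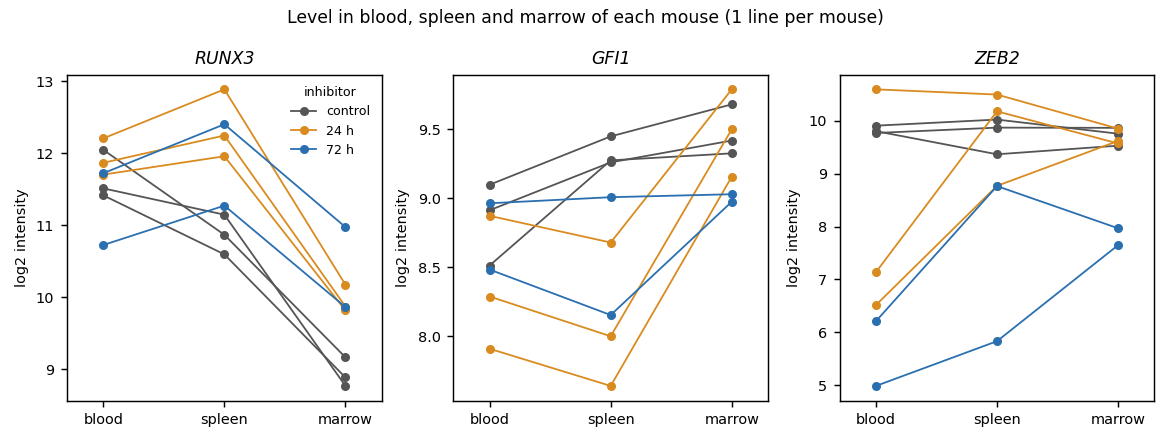
Log2 intensity (y axes) of RUNX3, GFI1 and ZEB2 in blood, spleen and marrow (x axes), with 1 line per mouse coloured by treatment. All 8 RUNX3 lines end lowest in marrow, the control GFI1 spleen values lie near their marrow values, and the ZEB2 lines of the 3 control mice are flat between 9.37 and 10.02.

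GFI1, a SNAG domain repressor, ran opposite to RUNX3. In blood it measured 8.91, 9.10 and 8.51 in control mice, 8.29, 7.91 and 8.87 in 24 h mice, and 8.48 and 8.96 in 72 h mice. Spleen held 9.26, 9.45 and 9.27 in control mice, 7.999, 7.64 and 8.68 in 24 h mice, and 8.15 and 9.01 in 72 h mice. Marrow held 9.42, 9.68 and 9.32 in control mice, 9.50, 9.15 and 9.79 in 24 h mice, and 8.97 and 9.03 in 72 h mice. Marrow was the highest site in each of the 8 mice. Over all mice GFI1 was lower in blood than in marrow by -0.73 ± 0.10 (adjusted p = 6.32e-05, 8 of 8 mice) and in spleen than in marrow by -0.68 ± 0.10 (adjusted p = 6.72e-04, 8 of 8 mice). In 24 h mice the falls were -1.12 ± 0.16 in blood (adjusted p = 4.10e-04) and -1.38 ± 0.16 in spleen (adjusted p = 4.35e-04), each in 3 of 3 mice. In control mice blood was lower than marrow by -0.63 ± 0.16 (adjusted p = 0.0174), a call lost without mouse 4, 5 or 6 (up to 0.222), and spleen differed from marrow by -0.15 ± 0.16 (adjusted p = 1). Within spleen GFI1 was lower in 24 h than in control mice by -1.22 ± 0.29 (2.33-fold, adjusted p = 0.00985), without overlap, and this was lost without mouse 1, 4 or 5 (adjusted p = 0.0698, 0.0609 and 0.0636). Whether its spleen against marrow difference was larger at 24 h than in controls did not pass over all genes (-1.23 ± 0.23, adjusted p = 0.158). Within BeadChip 2 the differences over mice were -0.49 in blood (adjusted p = 0.0903) and -0.28 in spleen (adjusted p = 0.696) against marrow. The spleen against marrow call over all mice was lost with median scaling (adjusted p = 0.0952) and with the series matrix values (0.264). The 24 h against control call in spleen was lost under the same settings (adjusted p = 0.0682 and 0.217). Within BeadChip 1, which holds 1 control mouse, that difference was -1.15.

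The table lists 3 GFI1 start sites, and the promoter of the middle entry, chr1:92486050-92486349 on the minus strand, is shown because it held both a RUNX core and TTGCGCAA, the palindrome bound by C/EBP factors. Capitals mark these matches.
GFI1 promoter: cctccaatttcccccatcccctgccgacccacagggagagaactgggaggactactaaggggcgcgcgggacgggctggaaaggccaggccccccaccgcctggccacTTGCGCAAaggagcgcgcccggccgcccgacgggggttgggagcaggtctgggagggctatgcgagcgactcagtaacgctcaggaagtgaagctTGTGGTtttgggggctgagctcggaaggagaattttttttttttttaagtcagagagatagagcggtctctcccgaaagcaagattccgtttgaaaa
The C/EBP palindrome lay at -142 to -135 and the RUNX core at -47 to -42. Of all 35116 promoters 0.151% held the palindrome, and of the 12 start sites searched for 7 of the 9 genes this was 1. IRF8 also held a RUNX core, at -134 to -129 of its first listed start. Searched on both strands as well were GAGGAA, a core bound by PU.1 (27.9% of all promoters), found at 1 start each of RUNX3, GFI1 and RUNX1, and CACCTG, an E-box bound by ZEB factors (20.6%), found at 1 start of RUNX3 and at 1 place in IRF8, which 2 overlapping start windows share.

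SPI1, whose dose sets the choice between myeloid fates, was higher outside the marrow. In blood it measured 8.66, 7.84 and 9.45 in control mice, 8.53, 8.14 and 7.12 in 24 h mice, and 9.88 and 8.25 in 72 h mice. Spleen held 8.73, 8.17 and 8.40 in control mice, 6.35, 9.05 and 7.13 in 24 h mice, and 8.70 and 8.43 in 72 h mice. Marrow held 8.48, 7.24 and 7.34 in control mice, 5.59 (not detected), 6.59 and 6.52 in 24 h mice, and 7.75 and 7.08 in 72 h mice. The 3 arrays of 24 h marrow lay below all other marrow arrays. Over 8 mice SPI1 was higher in blood than in marrow by 1.41 ± 0.30 (2.66-fold, adjusted p = 0.0016, 8 of 8 mice) and in spleen than in marrow by 1.05 ± 0.30 (2.07-fold, adjusted p = 0.035, 8 of 8 mice). A second SPI1 probe, which correlated with the first at 0.765 over the 24 arrays, gave 1.04 ± 0.15 (adjusted p = 9.70e-05) for blood and 0.70 (adjusted p = 0.00929) for spleen. The spleen difference of the first probe lost its call without mouse 2, 5, 6 or 9 (adjusted p = 0.0963, 0.0794, 0.0554 and 0.0555), and the blood difference was 1.32 within BeadChip 1 (adjusted p = 0.068). None of its treatment differences passed. The 24 h minus control difference was -1.45 ± 0.59 in marrow (adjusted p = 0.432), where the second probe gave -0.62 ± 0.35 (adjusted p = 0.733), and -0.72 ± 0.59 in blood (adjusted p = 0.551), where the second probe had the opposite sign (0.45 ± 0.35, adjusted p = 0.537).

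CEBPB was higher in blood and in spleen than in marrow, and CEBPD in blood than in marrow. CEBPB in blood measured 13.50, 13.50 and 13.91 in control mice, 13.98, 13.77 and 13.58 in 24 h mice, and 13.60 and 14.19 in 72 h mice. Its spleen values were 12.93, 13.47 and 13.38 in control mice, 14.17, 13.89 and 13.64 in 24 h mice, and 13.99 and 13.999 in 72 h mice. Marrow held 12.71, 13.23 and 13.26 in control mice, 13.02, 13.46 and 12.78 in 24 h mice, and 14.04 and 13.96 in 72 h mice. The 2 marrow arrays of 72 h thus lay above all other marrow arrays. CEBPB was higher in blood than in marrow by 0.45 ± 0.11 (adjusted p = 0.00447, 7 of 8 mice) and in spleen than in marrow by 0.38 ± 0.11 (adjusted p = 0.0391, 7 of 8 mice). In marrow it was higher at 72 h than at 24 h by 0.92 ± 0.26 (adjusted p = 0.0434), a contrast between BeadChips that with the BeadChip as a covariate was 0.50 (adjusted p = 0.386). It was lost without mouse 1, 3, 4, 5, 6, 8 or 9 (up to 0.152). The spleen call was lost without mouse 1, 2, 3, 4, 5 or 6 (up to 0.22), and within BeadChip 2 the blood difference was 0.18 (adjusted p = 0.509).

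CEBPD measured 12.36, 12.56 and 13.06 in control blood, 12.98, 12.76 and 13.05 in 24 h blood, and 13.22 and 13.42 in 72 h blood. Spleen values were 12.16, 12.61 and 12.56 in control mice, 12.50, 12.52 and 12.91 in 24 h mice, and 12.95 and 13.10 in 72 h mice. Marrow values were 12.29, 12.39 and 12.50 in control mice, 11.85, 12.28 and 12.16 in 24 h mice, and 12.94 and 12.88 in 72 h mice. In each site both 72 h arrays lay above all control arrays. CEBPD was higher in blood than in marrow by 0.52 ± 0.10 (adjusted p = 7.92e-04, 8 of 8 mice), and in blood it was higher at 72 h than in controls by 0.66 ± 0.22 (1.58-fold, adjusted p = 0.0268). The blood call at 72 h was lost without mouse 4, 5, 8 or 9 (adjusted p = 0.125, 0.106, 0.0902 and 0.122). In marrow it was higher at 72 h than at 24 h by 0.82 ± 0.22 (adjusted p = 0.0372), which was lost without mouse 1, 4, 5, 6, 8 or 9 (up to 0.148) and with the BeadChip as a covariate was 0.47 (adjusted p = 0.352). CEBPA spanned only 12.11 to 13.31 over the 24 arrays. It was lower in blood than in marrow by -0.37 ± 0.14 (adjusted p = 0.039, 6 of 8 mice) and in blood than in spleen by -0.51 ± 0.14 (adjusted p = 0.0206, 7 of 8 mice), calls lost without mouse 2, 3, 4, 5 or 8 (up to 0.0959) and without mouse 2, 4 or 6 (0.0522, 0.0536 and 0.0511).

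IRF8 was lower in blood and lower at 72 h. Blood held 13.62, 13.64 and 13.54 in control mice, 13.10, 12.82 and 13.55 in 24 h mice, and 12.70 and 12.92 in 72 h mice. Spleen held 13.76, 13.92 and 14.05 in control mice, 14.46, 13.71 and 13.85 in 24 h mice, and 13.06 and 13.66 in 72 h mice. Marrow held 14.07, 13.93 and 14.09 in control mice, 14.03, 13.63 and 13.97 in 24 h mice, and 13.16 and 13.60 in 72 h mice. In each site both 72 h arrays lay below all control arrays. IRF8 was lower in blood than in marrow by -0.57 ± 0.11 (adjusted p = 6.71e-04, 8 of 8 mice) and in blood than in spleen by -0.57 ± 0.11 (adjusted p = 0.00429, 8 of 8 mice). Spleen minus marrow was -0.0013 ± 0.11 (adjusted p = 0.996). In blood it was lower at 72 h than in controls by -0.79 ± 0.25 (1.73-fold, adjusted p = 0.0224), which was lost without mouse 4, 5, 6 or 8 (adjusted p = 0.0782, 0.0856, 0.0576 and 0.133). Within BeadChip 2 that difference was -0.78 (adjusted p = 0.0571). It was also lost with median scaling (-0.52, adjusted p = 0.173) and with the series matrix values (-0.68, adjusted p = 0.196).

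ZEB2 was lower at 72 h than in controls in blood and lower in blood than in marrow. In blood it measured 9.91, 9.80 and 9.77 in control mice, 7.14, 6.52 and 10.59 in 24 h mice, and 4.99 (not detected) and 6.21 in 72 h mice. Spleen held 10.02, 9.37 and 9.87 in control mice, 10.18, 8.77 and 10.49 in 24 h mice, and 5.83 (not detected) and 8.76 in 72 h mice. Marrow held 9.76, 9.53 and 9.87 in control mice, 9.57, 9.62 and 9.85 in 24 h mice, and 7.65 and 7.97 in 72 h mice. Control arrays kept to 9.37 to 10.02 in all 3 sites, 2 of 3 arrays of 24 h blood lay below and 1 above them, and all 6 arrays of 72 h lay below every control array. In blood ZEB2 was lower at 72 h than in controls by -4.23 ± 0.86 (adjusted p = 0.00319), with detection on 1 of 2 and 3 of 3 arrays. Part of that size comes from the undetected value, and with undetected values raised to the lowest detected signal of their array, an alternative chosen after seeing the data, the difference was -3.61 ± 0.82 (12.2-fold, adjusted p = 0.00497). The call held in 18 of 19 alternatives and was lost without the blood array of mouse 8 (-3.62, adjusted p = 0.0599). Over 8 mice ZEB2 was lower in blood than in marrow by -1.11 ± 0.35 (adjusted p = 0.0182, 5 of 8 mice) and in blood than in spleen by -1.05 ± 0.35 (adjusted p = 0.0478, 6 of 8 mice). The marrow contrast lost its call without mouse 1, 2 or 8 (adjusted p = 0.0674, 0.0785 and 0.0513), and the spleen contrast without mouse 1, 2, 4, 5, 6 or 9 (up to 0.185) or the blood array of mouse 8 (0.0596) and with undetected values raised (-0.93, adjusted p = 0.0773). In control mice blood minus marrow was 0.11 ± 0.58 (adjusted p = 0.928).

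ZEB2 and IRF8 followed the main axis of the arrays. Over the 24 arrays, which share mice, the correlation with the first principal component was 0.937 for ZEB2, with 251 genes at a larger absolute value, and 0.88 for IRF8. With the number of probes detected per array it was 0.518 and 0.556. For RUNX3 these were -0.522 and -0.04, for CEBPD -0.708 and -0.06. The part of RNA quality or amplification in these results was not tested.

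RUNX1, a frequent target of leukaemia translocations and mutations, was read by 1 kept probe, while 2 others were detected on 0 arrays. Blood held 7.998, 8.28 and 7.81 in control mice, 7.08, 7.70 and 7.28 in 24 h mice, and 7.68 and 9.14 in 72 h mice. Spleen held 7.71, 8.09 and 7.94 in control mice, 7.55, 6.52 and 8.03 in 24 h mice, and 8.72 and 8.79 in 72 h mice. Marrow held 7.56, 6.87 and 6.93 in control mice, 6.86, 7.04 and 7.31 in 24 h mice, and 8.69 and 7.50 in 72 h mice. The site differences did not pass, at 0.53 ± 0.25 for blood (adjusted p = 0.0939) and 0.57 ± 0.25 for spleen (adjusted p = 0.153) against marrow. In spleen RUNX1 was higher at 72 h than at 24 h by 1.39 ± 0.42 (2.62-fold, adjusted p = 0.0382), a call lost without mouse 1, 2, 4, 5, 6 or 8 (up to 0.0992) and with the BeadChip as a covariate (1.49, adjusted p = 0.131).

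Treatment was also counted within sites. At 24 h against control 0 of 9 passed in blood (background 0.0386%), 2 in spleen, RUNX3 and GFI1 (background 12.5%), and 0 in marrow (background 0.213%); at an unadjusted p under 0.05 the counts by limma were 1, 3 and 2. At 72 h against control 3 passed in blood (CEBPD, IRF8 and ZEB2, background 33.8%), 0 in spleen (background 0.86%, 6 unadjusted) and 1 in marrow, RUNX3 (background 2.6%, 6 unadjusted). At 72 h against 24 h 0 passed in blood (background 9.57%, 2 unadjusted), 1 in spleen (RUNX1, background 13.2%) and 2 in marrow (CEBPB and CEBPD, background 5.68%). The backgrounds are shares at the adjusted threshold, so the unadjusted counts cannot be set against them. Leaving out mouse 9 brought the spleen count at 72 h against control to 4, and leaving out mouse 3 brought it to 1.

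Averaged over the 3 sites of each mouse, 24 h against control gave 0 of 9 (background 0.898%), with 4 at an unadjusted p under 0.05 in limma: SPI1, RUNX1, RUNX3 and GFI1. At 72 h against control 5 of 9 passed, against 23.4% of all genes. CEBPB (0.64 ± 0.20), CEBPD (0.59 ± 0.17) and RUNX1 (0.73 ± 0.18) were higher, 3 of 9 with a background of 10.1%, and IRF8 (-0.66 ± 0.20) and ZEB2 (-2.86 ± 0.57) were lower, 2 of 9 with a background of 13.3%. The adjusted p values were 0.0468, 0.043, 0.0288, 0.0427 and 0.0236 in that order, from 2 mice of 72 h and 3 control mice. At 72 h against 24 h RUNX1 was higher (1.16 ± 0.18, adjusted p = 0.0195) and ZEB2 lower (-2.29 ± 0.57, adjusted p = 0.0319), 2 of 9 with a background of 20.7%. With the BeadChip as a covariate 0 of the 5 and 0 of the 2 passed, and without control mouse 4, 5 or 6 or 72 h mouse 8 0 of the 5 passed, with adjusted p of 0.0941, 0.0831, 0.0698 and 0.176 for ZEB2. The calls between 72 h and 24 h were lost without mouse 1 or 8 for RUNX1 (up to 0.081) and without mouse 1, 4, 5, 6 or 8 for ZEB2 (up to 0.205). Within BeadChip 2 the 72 h differences were 0.77 for RUNX1 (adjusted p = 0.0635), -2.80 for ZEB2 (adjusted p = 0.061) and -0.68 for IRF8 (adjusted p = 0.0869). For 72 h against control these checks are not separate, since mouse 4 is the only control on BeadChip 1. The covariate, leaving out mouse 4 and BeadChip 2 alone all gave the same difference, such as -2.80 for ZEB2.

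**Figure D4:**
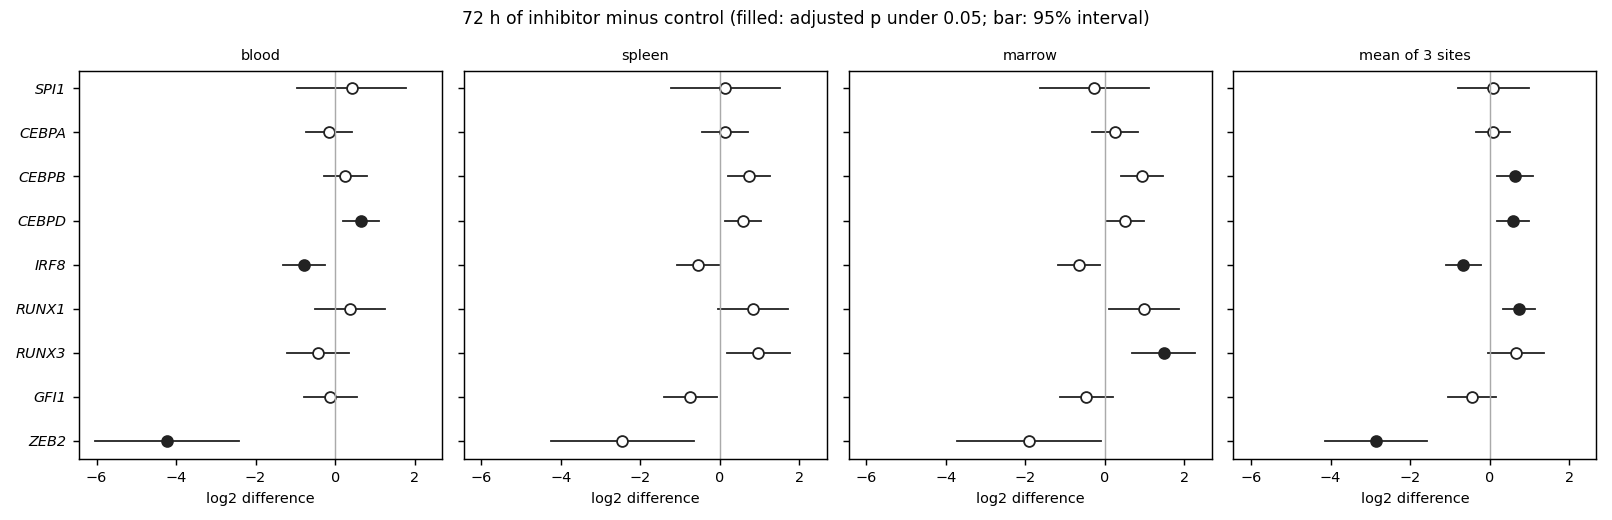
Log2 difference of 72 h of inhibitor minus control (shared x axis) for the 9 genes (y axis) in blood, spleen and marrow and as the mean of the 3 sites, with 95% intervals; filled points passed an adjusted p of 0.05. ZEB2 lies at -4.23 in blood, -2.45 in spleen and -1.91 in marrow, of which only blood passed.

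Among the 36 pairs of the 9 genes 3 correlated above 0.6 and 3 below -0.6 over the 24 arrays, which share mice, sites and treatments. IRF8 and ZEB2 correlated at 0.857, CEBPB and CEBPD at 0.752 and CEBPB and RUNX3 at 0.655. RUNX3 and GFI1 correlated at -0.847, CEBPB and GFI1 at -0.697 and CEBPD and IRF8 at -0.666. The genes most like RUNX3 over the same arrays were SPINT2, PLXNA3 and CDC42EP4 (0.946, 0.932 and 0.924), and those most like ZEB2 were OSGIN2, HNRNPH2 and HNRNPK (0.98, 0.977 and 0.971). ITGA5, TMEM115 and TP53I13 were most like SPI1 (0.966, 0.948 and 0.946), and CNBP, ARFIP1 and PLAC8 most like IRF8 (0.944, 0.937 and 0.93). For GFI1 they were PDSS1, PSMG1 and AHCY (0.921, 0.916 and 0.909), for CEBPB ADCK5, CSTB and DPF2 (0.917, 0.915 and 0.906), and for CEBPD GPS2, AGPAT2 and RBFOX2 (0.875, 0.86 and 0.858). RUNX1 was most like the azurophil granule protease gene PRTN3, then AGPAT2 and COPE (0.813, 0.727 and 0.7), and CEBPA most like UNC119B, UCK1 and RWDD4 (0.762, 0.693 and 0.684).

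**Figure D5:**
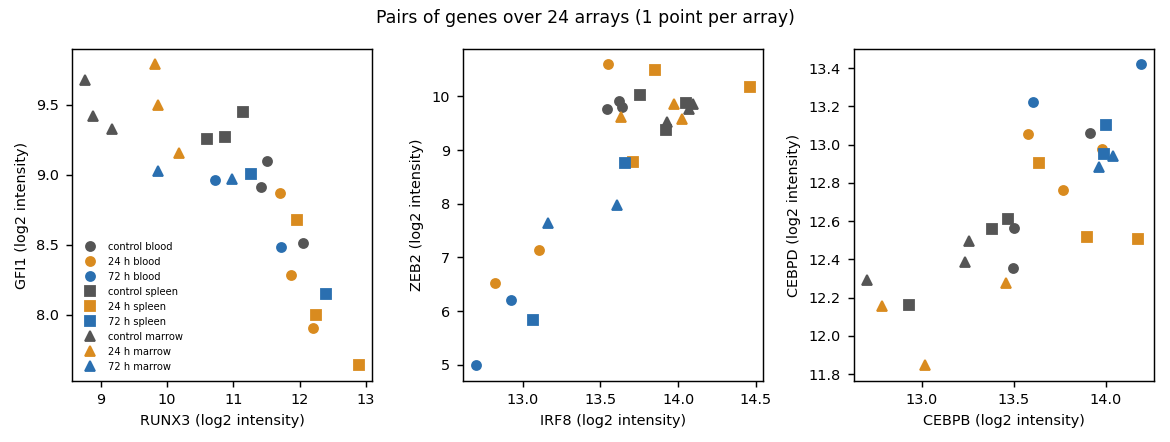
Log2 intensity of GFI1 against RUNX3, ZEB2 against IRF8 and CEBPD against CEBPB, with 1 point per array, colour for treatment and shape for site. The 24 points run downwards in the first panel (-0.847) and upwards in the others (0.857 and 0.752).

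Factors related to the 9 genes were counted from lists, beside the shares of all genes that passed: 22% higher and 26.4% lower in blood against marrow, 7.01% and 5.13% in spleen against marrow, and 10.1% and 13.3% at 72 h against control over sites. Of 19 tested relatives and partners 4 were higher and 5 lower in blood than in marrow, 9 of 19 where 48.5% of all genes passed, with a median of -0.16 beside -0.03 over all genes. The ETS factor ETS2 fell by 1.06 ± 0.16, the C/EBP partner DDIT3 by 0.72 ± 0.11 and the AP-1 subunit JUN by 0.73 ± 0.12, while IRF7, the interferon regulator, was higher by 0.75 ± 0.13. CBFB, the gene of the RUNX partner CBF beta, was also lower (-0.86 ± 0.15, adjusted p = 4.63e-04). In spleen against marrow 2 were higher, IRF7 and ELF4, and 0 lower. At 72 h against control over sites 5 were higher and 4 lower, among them SPIB, the PU.1 relative (1.24 ± 0.20), JUN (-0.93 ± 0.16), RUNX2 (-1.28 ± 0.23) and IRF7 (1.05 ± 0.20).

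Of 12 progenitor factors 3 were higher and 3 lower in blood than in marrow (median 0.1), again beside 48.5% of all genes, with MYC at -1.52 ± 0.17, GATA2 at 0.98 ± 0.16, MYB at -0.51 ± 0.10 and LYL1 at 0.67 ± 0.16. In spleen GATA2 was higher and MYC lower, and at 72 h over sites MYB, HHEX, MEIS1 and MYC were lower and 0 higher. Of 13 monocyte and macrophage differentiation factors 7 were higher and 2 lower in blood than in marrow (median 0.39). EGR1, induced early by growth factors, was at -2.66 ± 0.21, the helix-loop-helix inhibitor ID2 at 1.37 ± 0.16, the lipid receptor PPARG at 1.03 ± 0.13 and BATF3 at 1.00 ± 0.17. In spleen 2 were higher and 1 lower, and at 72 h over sites BATF3 and ID2 were higher and KLF4 lower. Of 15 cofactors and regulators 2 were higher and 3 lower in blood, with SET, HDAC2 and HDAC1 lower and TLE3 and TRIB1 higher. In spleen 2 were higher and 1 lower, and at 72 h 1 was higher and 4 lower, with the acetyltransferases EP300 and CREBBP lower.

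Of 25 tested textbook targets of PU.1 and C/EBP factors 10 were higher and 4 lower in blood than in marrow (22% and 26.4% of all genes), with a median of 0.18. This list holds GFI1, a gene of the set itself, which counts among the lower ones in blood and in spleen. The endotoxin co-receptor CD14 was higher by 3.00 ± 0.19, the M-CSF receptor CSF1R by 2.13 ± 0.21 and the adaptor TYROBP by 1.05 ± 0.13, and the granulocyte-monocyte progenitor gene MS4A3 was lower (-1.08 ± 0.12). In spleen 8 were higher and 3 lower (7.01% and 5.13% of all genes, median 0.13), CD14 at 1.93 ± 0.19 and CSF1R at 1.43 ± 0.21 among them. At 72 h over sites 7 were higher and 4 lower (10.1% and 13.3% of all genes), with CD14 at 2.23 ± 0.24 and TLR4 at 1.76 ± 0.25. Of 7 tested textbook RUNX targets, a list that holds SPI1 and RUNX1 themselves and, in IL7R, a gene that T cells also express, 4 were higher and 0 lower in blood than in marrow (median 0.57), the integrin ITGAL at 1.61 ± 0.17 and IL7R at 0.82 ± 0.17 among them. In spleen 4 were higher and 0 lower, and at 72 h over sites only RUNX1 passed. SPI1, a gene of the set itself, counts among the 4 higher ones in blood and in spleen. At 24 h over sites CD14 alone of all 6 lists passed (1.41 ± 0.21, adjusted p = 0.0258). Of 5 tested tissue macrophage genes 3 were higher and 1 lower in blood than in marrow, among them C1QB (1.45 ± 0.27) and CD163 (-0.77 ± 0.23), and SIGLEC1 was detected on no array. Their summed intensity ranged from 532 to 1892 in blood, 919 to 2853 in spleen and 539 to 1380 in marrow. The erythroid genes ALAS2 and HBA2 were lower in blood than in marrow (-1.65 ± 0.30 and -1.39 ± 0.39) and HBA1, HBG1, HBG2, SLC4A1 and KLF1 were detected on no array. The erythroid sum ranged from 1152 to 23564 in blood, 15300.4 to 22757 in spleen and 8093 to 21797 in marrow. At 72 h over sites ALAS2 (2.05 ± 0.61) and MARCO (0.95 ± 0.27) were higher than in controls. The part of such cells in the results was not tested.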

How the data were processed

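Human whole-genome expression BeadChips read RNA of sorted cells on 24 arrays, after 2 rounds of amplification per the labels' protocols. The authors deposited the non-normalized intensity of each probe with its detection p-value, per the file headers, and exported them with GenomeStudio, per the submitters' processing notes (version not given in the sources used here). The deposited series matrix holds the same intensity values less a constant per array (49.7 to 64.5).

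For the present account R 4.3.3 was used, and limma 3.58.1 supplied neqc, which subtracts background, adds an offset of 16, quantile-normalises and takes log2. Probes with detection p under 0.01 on at least 3 arrays were kept (17116), and the probe with the highest mean stood for each of 10351 genes; 30113 probes had 1 symbol, 8 several and 17110 none. Site differences were fitted with the mouse as a replicate block, treatment within sites on single arrays, and treatment over sites on 1 mean per mouse, with site-by-treatment F tests. limma's moderated tests were two-sided and Benjamini-Hochberg adjusted over all genes (0.05). The mouse numbers pair the samples, since each mouse gave 3 sites; arrays of 1 mouse deviated together (mean correlation 0.284, against -0.0405 between mice). With 2 or 3 mice a group, their number limits the precision. The fits of site differences, of treatment within sites and of their interaction were tested on simulated log2 values. Normalisation, the filter, the choice of probe, the fit on mouse means and the F tests were not.

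All 9 genes are named; per gene the 3 most correlated genes over 24 arrays, and up to 4 genes per list with the smallest p, with others chosen after their values were seen. The genes and lists were chosen with earlier results of these data known. Alternatives were the filter, background correction, scaling, series matrix values, probe-level fit, block, BeadChip, variance trend, leaving out each mouse and, chosen after seeing the data, a floor for undetected values. Promoter sequences are RefSeq's, GRCh38.p14, and none was searched for SPI1 and CEBPD.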

Additional observations from a re-analysis of the deposited data

Results flagged for a closer look

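RUNX3 stood out because its site differences were not the same between treatment groups. The blood against marrow difference was smaller in 72 h than in control mice (-1.91 ± 0.27, adjusted p = 0.00415). The blood against spleen difference was lower in 24 h than in control mice (-1.23 ± 0.24, adjusted p = 0.0381). The joint test of the site differences at 72 h gave an adjusted p of 0.0132. Within BeadChip 2, which holds both 72 h mice and control mice 5 and 6, the first was -2.01 (adjusted p = 0.115). With median scaling the first was -1.61 (adjusted p = 0.101), and with the series matrix values -1.65 (adjusted p = 0.405). Harvest day cannot be told apart from treatment.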

How the results depend on the processing

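Of 54 differences that passed, recomputed 1043 times in all, 733 passed again, 310 did not and 0 changed direction. Of 198 that did not pass, 60 of 3816 recomputations did. With only probes detected on all arrays 47 of 47 passed and with a variance trend 54 of 54, against 17 of 54 with the series matrix values, 31 of 54 with median scaling, 4 of 16 with the BeadChip as a covariate, 16 of 35 within BeadChip 1 and 7 of 34 within BeadChip 2. The paragraphs on single genes do not list every loss with other scaling. Without the replicate block, which pairs the arrays by mouse, 21 of 38 passed: blood against spleen in controls gave 0 of the 9 genes, spleen against marrow over all mice 2, and RUNX3 in blood against marrow, 72 h against control, had an adjusted p of 0.146.

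Outside leaving out mice, the count of the 9 genes that passed ran from 2 to 8 in blood against marrow (8 reported, 5 with the series matrix values and within BeadChip 1), 1 to 4 in spleen against marrow (4 reported) and 0 to 4 in blood against spleen (3 reported). In controls these ran from 1 to 3, 0 to 1 and 0 to 1, at 24 h from 2 to 7, 1 to 5 and 0 to 1, and at 72 h from 0 to 3, 0 to 1 and 0 to 0. Within sites at 72 h against control they ran from 0 to 3 in blood, 0 to 0 in spleen and 0 to 2 in marrow, and over sites from 0 to 5, with 3 under median scaling; at 72 h against 24 h over sites they ran from 0 to 4, with 4 under a variance trend. Leaving out each mouse in turn gave 6 to 8, 2 to 5 and 1 to 3 for the site comparisons over all mice, 1 to 3, 1 to 1 and 0 to 2 in controls, 3 to 7, 2 to 4 and 0 to 2 at 24 h, and 0 to 3, 0 to 1 and 0 to 1 at 72 h. For 24 h against control it gave 0 to 1 in blood, 0 to 3 in spleen, 0 to 0 in marrow and 0 to 0 over sites. For 72 h against control it gave 1 to 3, 0 to 4, 0 to 2 and 0 to 5, and for 72 h against 24 h 0 to 2, 0 to 3, 0 to 2 and 0 to 4. The joint tests gave 0 to 3 at 24 h and 0 to 1 at 72 h, and the RUNX3 contrasts 1 to 1 and 0 to 3. Without mouse 8 or 9 the lone 72 h mouse is assumed to vary like the other groups. With undetected values raised to each array's lowest detected signal, chosen after seeing the data, 52 of 54 passed, with ZEB2 losing 2 calls; blood against marrow at 72 h then gave 1 of the 9 genes and 72 h against control in marrow 2. The cause of these changes was not tested.

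Scaling moved the median of all genes. In blood against marrow it was -0.22 with the series matrix values and -0.13 with median scaling, where 26.8% and 33.9% of called genes were higher, against 45.5% as reported. In spleen against marrow it was 0.16 and 0.11 (88.2% and 85.7%, against 57.8%), and in blood against spleen -0.40 and -0.26 (3.97% and 9.65%, against 41.7%). Probes near background, such as ZEB2 in 72 h blood, have less certain differences.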
